A study of Mus musculus with 163 samples.

Results

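Oocyte growth in culture was described here by 48 of the 163 single mouse oocytes of the series, chosen by their labels alone: 24 growing oocytes (GROs) and 24 fully grown oocytes (FGOs), all derived from the gonads of mouse embryos at E12.5, a stage counted in days after mating. Each library is the polyadenylated RNA of 1 oocyte, made with the Smart-seq2 protocol, which amplifies full-length cDNA and uses no molecular identifiers. By the study's methods, female gonads were dissociated and all of their cells, the primordial germ cells included, were aggregated into reconstituted ovaries (rOvaries), which were cultured with retinoic acid and then fulvestrant, an estrogen receptor blocker, during in vitro differentiation (IVD). GROs were harvested at the end of IVD. FGOs were harvested after in vitro growth (IVG), in which follicles dissected from the rOvaries were treated with collagenase and cultured with FSH and, early on, with the oocyte factors BMP15 and GDF9. Both groups therefore share the dissociation, the reaggregation and the whole of IVD, and they differ by IVG. All oocytes were freed of follicle cells and of the zona pellucida before lysis. The methods name outbred Swiss Webster mice for E12.5 gonads taken as a source of somatic cells and name no other strain for the gonads behind these oocytes. The number of rOvaries is not given in the sources used here. For comparison, 24 GROs and 20 FGOs that grew in the mouse and 23 GROs and 24 FGOs derived from BVSC-iPSCs, induced pluripotent stem cells with fluorescent germ cell reporters, were used.

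An oocyte enters its growth phase in a primordial follicle, enlarges while it stays arrested in meiotic prophase, and ends growth with transcription largely silent. During that phase it deposits the zona pellucida, secretes GDF9 and BMP15 toward the granulosa cells that nourish it through gap junctions, and stores the mRNAs, ribosomes and mitochondria that the early embryo will use. A difference between GROs and FGOs can thus reflect both what was transcribed and what was kept or degraded.

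No label names the animal, embryo or culture of an oocyte. Each group therefore counts as 1 sample, and no p-value or standard error is given for any difference. Each level is a pooled CPM, the reads of a gene over the 24 oocytes of a group scaled to 1000000 reads of that group, followed by its exact Poisson 95% interval in parentheses. Reads amplified from the same molecule are not independent, so the intervals cover counting error only. Beside the pooled level stand the lowest, median and highest of the 24 oocytes, which show the spread that counting error leaves out. Differences are log2 ratios of FGO over GRO after 0.5 CPM was added to both levels, and this understates the change of genes with few reads. CPM is a share of the reads of a library, so the values say nothing of the amount of RNA in an oocyte.

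Depth was alike in the groups. In units of 1000000 counted reads (M), GRO libraries held 4.57 to 8.70 M (median 6.66) and FGO libraries 2.17 to 8.15 M (median 7.04), 157 and 162 M in all. FGOs 5 and 22 were the shallowest, at 2.17 and 2.91 M. A count of 3 reads over a group corresponds to 0.0191 CPM in GROs and 0.0185 CPM in FGOs. FGO 19 stood apart: its median correlation with the other FGOs was 0.879, against 0.959 to 0.977 for every other oocyte within its group, and 1554 of its genes lay at least 4-fold off the median of the other FGOs, against 12 to 177 genes in every other oocyte. FGO 18 was the oocyte with 177 such genes. It held 34.9 CPM of Acta2 and 28.3 CPM of Col3a1, whereas no other FGO exceeded 0.490 and 0.144 CPM. Both genes are from a list of 12 theca and stroma markers. Of that list, Col1a2 had no read in any FGO and Pdgfra had 2 reads over all FGOs. FGO 15 had been left out by the study for its size and is kept here. The oocyte markers were present in both groups, with Gdf9 at 11175 CPM (11158 to 11191) in GROs and 7701 CPM (7688 to 7715) in FGOs, and its lowest level in any of the 48 oocytes was 5222 CPM. Markers of granulosa cells summed to a median of 54.4 CPM in GROs and 117 CPM in FGOs and are described with the somatic markers.

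Most transcripts kept their share of the library during IVG. Of 13068 genes above 1 CPM in at least 3 of the 48 oocytes, 84.2% lay within 2-fold in FGOs and GROs, and the median log2 ratio was −0.05. At least 4-fold higher in FGOs were 115 genes, or 0.880%, and at least 4-fold lower were 244 genes, or 1.87%. These counts were 51 and 98 with 2 CPM added, 245 and 420 with 0.1 CPM, and 331 and 471 by the edgeR coefficient. At the 2-fold level the counts were 761 higher (5.82%) and 1304 lower (9.98%). The genes past 4-fold started from different levels. Those higher in FGOs had a median pooled level of 1.51 CPM in GROs and 12.2 CPM in FGOs, while those lower in FGOs had 14.5 CPM in GROs, near the 15.9 CPM median of all tested genes, and 1.94 CPM in FGOs. In their higher group, 28 of the 115 and 32 of the 244 genes stayed under 5 CPM, and only 4 and 12 exceeded 100 CPM. Leaving out any single oocyte kept 99 of the 115 and 222 of the 244 genes past 4-fold.

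**Figure D1:**
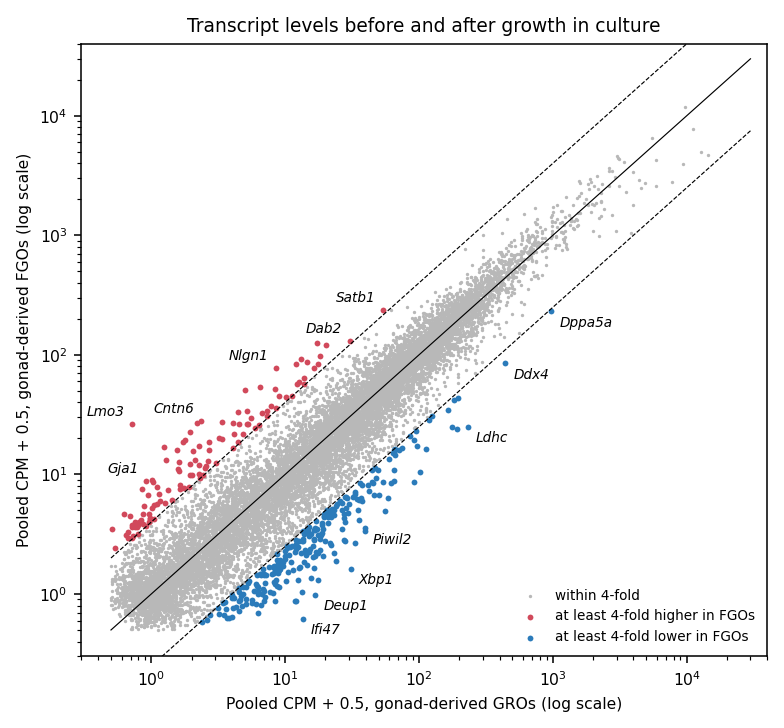
Pooled level of each of the 13068 tested genes in the 24 gonad-derived GROs (horizontal axis, CPM + 0.5, log scale) and the 24 gonad-derived FGOs (vertical axis, CPM + 0.5, log scale), with genes at least 4-fold higher or lower in FGOs colored. The 115 higher genes lie mostly at the low end of the GRO axis, and the 244 lower genes spread over its middle.

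The separation was cleaner among genes that were lower in FGOs. Every FGO lay below every GRO for 342 genes (2.62% of those tested) and above every GRO for 178 genes (1.36%). Of the genes past 4-fold, 134 of 244 lower ones and 22 of 115 higher ones were separated in this way. Without FGO 19 the 2 counts over all genes became 377 and 228. At the 4-fold border, Clec2g, Kif5c and Sh3bgrl lay just inside at a log2 ratio of 2.01, whereas Ifnlr1 and Fxyd6 (2.00) and Cyp19a1 (1.98) lay just outside. Among lower genes, Zbtb5, Ran and Plekhf2 lay just inside, each at −2.001, and Zfp954 (−1.998), Casp6 (−1.997) and Stk17b (−1.996) just outside.

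The gene with the largest increase in share was Lmo3 (Entrez 109593, chr6:138362918-138582206 in GRCm38), which encodes a LIM-domain transcriptional cofactor. It was nearly silent in GROs, at 0.216 CPM (0.150 to 0.302), where 7 of 24 oocytes had no read and the highest had 0.971 CPM. In FGOs it reached 26.2 CPM (25.4 to 27.0), from 3.05 to 46.4 CPM (median 28.0), and all 24 FGOs lay above every GRO. The log2 ratio was 5.22, or 37.2-fold with the added 0.5 CPM, and it stayed between 5.17 and 5.28 when any oocyte was left out. Next came Csrnp3 (77771, chr2:65845284-66036614), a nuclear protein of the AXUD1 family, and Pnma5 (385377, chrX:73033981-73039721), a member of the paraneoplastic antigen family on the X chromosome. Csrnp3 stood at 0.745 CPM (0.616 to 0.893) in GROs and 16.6 CPM (16.0 to 17.2) in FGOs. Its log2 ratio was 3.78, and 23 of 24 FGOs exceeded the highest GRO. Pnma5 stood at 1.70 CPM (1.502 to 1.92) and 26.5 CPM (25.7 to 27.3), a log2 ratio of 3.62, with GROs from 0 to 6.88 CPM (median 0.968) and FGOs from 8.29 to 60.8 CPM (median 24.7). The groups did not overlap for Pnma5.

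The promoters of these 3 genes are shown because genes higher in FGOs had few CpG dinucleotides near their start sites, with a median of 8 per window. The median was 19 over all tested genes and 12 over tested genes under 5 CPM in GROs. Each runs from 250 bases before to 50 bases after the RefSeq start in GRCm38.p6, on the strand of the gene, with CpG dinucleotides in capitals. The Lmo3 promoter (chr6:138581919-138582218, minus strand) held 7 CpGs, that of Csrnp3 (chr2:65845517-65845816, plus strand) 5 and that of Pnma5 (chrX:73037054-73037353, minus strand) only 1.
Lmo3: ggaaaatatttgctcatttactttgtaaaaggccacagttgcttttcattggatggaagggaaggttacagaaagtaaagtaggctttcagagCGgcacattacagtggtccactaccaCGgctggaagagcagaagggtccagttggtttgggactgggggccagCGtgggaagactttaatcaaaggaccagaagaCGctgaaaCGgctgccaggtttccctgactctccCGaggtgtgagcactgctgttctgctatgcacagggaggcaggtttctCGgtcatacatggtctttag
Csrnp3: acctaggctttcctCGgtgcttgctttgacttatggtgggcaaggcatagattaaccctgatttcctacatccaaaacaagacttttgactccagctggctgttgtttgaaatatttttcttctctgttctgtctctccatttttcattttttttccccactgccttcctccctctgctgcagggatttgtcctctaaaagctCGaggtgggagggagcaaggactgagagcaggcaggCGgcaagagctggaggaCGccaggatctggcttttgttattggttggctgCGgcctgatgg
Pnma5: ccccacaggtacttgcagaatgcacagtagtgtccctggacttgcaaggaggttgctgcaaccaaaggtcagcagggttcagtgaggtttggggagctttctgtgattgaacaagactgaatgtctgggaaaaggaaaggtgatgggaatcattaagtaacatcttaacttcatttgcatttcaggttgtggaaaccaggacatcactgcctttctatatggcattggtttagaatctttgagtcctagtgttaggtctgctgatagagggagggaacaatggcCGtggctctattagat

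The next genes included several that encode membrane proteins. Cntn6, a contactin that mediates adhesion between neurons, was at 1.87 CPM (1.66 to 2.10) in GROs and 27.8 CPM (27.0 to 28.6) in FGOs (log2 ratio 3.57). Only 1 FGO, at 2.01 CPM, reached down into the range of the GROs, whose highest was 4.62 CPM. Nlgn1, a synaptic adhesion protein, was at 8.09 CPM (7.65 to 8.54) and 77.0 CPM (75.6 to 78.3) (log2 ratio 3.17). Its FGOs ran from 54.0 to 113 CPM (median 74.4), all above the GRO maximum of 34.4 CPM. Thsd7b, a thrombospondin-domain protein, had FGOs from 9.18 to 22.6 CPM (median 15.0) and GROs from 0 to 6.02 CPM (median 0.928) (log2 ratio 3.36). Rrh, an opsin-like receptor named peropsin, stood at 1.46 CPM (1.28 to 1.66) and 22.3 CPM (21.5 to 23.0) (log2 ratio 3.54), again without overlap. Gypc, a glycophorin that links the red cell membrane to its skeleton, stood at 1.22 CPM (1.05 to 1.40) and 18.3 CPM (17.6 to 19.0) (log2 ratio 3.45), and 22 of 24 FGOs were above all GROs.

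The transcription factor Tfap2b, of the AP-2 family, was at 0.783 CPM (0.651 to 0.934) in GROs and 12.7 CPM (12.2 to 13.3) in FGOs (log2 ratio 3.37). Man1a, a Golgi mannosidase that trims N-glycans, was at 1.29 CPM (1.12 to 1.48) and 18.9 CPM (18.3 to 19.6) (log2 ratio 3.44), with no overlap between the groups. Sgo2b, a copy of the shugoshin gene Sgo2a whose product protects cohesin at centromeres, was at 4.49 CPM (4.16 to 4.83) and 50.3 CPM (49.2 to 51.4) (log2 ratio 3.35). Its FGOs began at 31.8 CPM and its GROs ended at 22.9 CPM, whereas Sgo2a itself was within 2-fold (0.19). Reads that 2 near-identical copies could share were counted only where they mapped uniquely, which leaves the split between Sgo2a and Sgo2b uncertain. Ccl28, a mucosal chemokine, was at 0.509 CPM (0.404 to 0.634) and 8.47 CPM (8.03 to 8.93) (log2 ratio 3.15), with 23 of 24 FGOs above all GROs. Bpifc, of the family of lipid-binding BPI proteins, was at 0.350 CPM (0.264 to 0.456) and 7.07 CPM (6.67 to 7.49) (log2 ratio 3.15). Prr32, a proline-rich protein, was at 0.535 CPM (0.427 to 0.662) and 8.20 CPM (7.76 to 8.65) (log2 ratio 3.07).

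Gja1, which encodes connexin 43, the gap junction protein that joins granulosa cells to one another, met the size criterion but was not uniform. Its pooled level was 0.420 CPM (0.325 to 0.535) in GROs and 8.29 CPM (7.85 to 8.74) in FGOs (log2 ratio 3.26). Among the FGOs it ran from 0 to 44.9 CPM (median 2.90): 4 oocytes exceeded 20 CPM, 5 were under 1 CPM, 2 had no read, and 12 lay within the range of the GROs. FGO 18, the oocyte with Acta2 and Col3a1 transcripts, was the highest at 44.9 CPM and the next was at 33.4 CPM. Without FGO 18 the log2 ratio was 2.93.

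The most abundant of the genes at least 4-fold higher were a chromatin organizer, an endocytic adaptor, a receptor, a transporter and an interferon-inducible gene. Satb1, which folds chromatin into loops, was at 53.8 CPM (52.7 to 55.0) in GROs and 236 CPM (234 to 239) in FGOs (log2 ratio 2.13), with the lowest FGO at 157 and the highest GRO at 98.1 CPM. Dab2, an adaptor of clathrin-mediated uptake, was at 29.9 CPM (29.0 to 30.8) and 131 CPM (129 to 132) (log2 ratio 2.11). Its GROs spread widely, from 2.76 to 82.5 CPM (median 31.0), yet the lowest FGO, at 83.8 CPM, was above all of them. Htr5a, a serotonin receptor, was at 16.9 CPM (16.2 to 17.5) and 126 CPM (124 to 127) (log2 ratio 2.86). Its lowest FGO was FGO 19, at 28.8 CPM, and the other 23 FGOs began at 66.2 CPM, above the GRO maximum of 54.6 CPM. Slc6a15, a transporter of neutral amino acids, was at 19.6 CPM (18.9 to 20.3) and 121 CPM (119 to 122.6) (log2 ratio 2.59). GROs of Slc6a15 ran from 0.137 to 88.6 CPM (median 19.4), and 20 of 24 FGOs exceeded the highest. Epsti1, induced by interferon, was at 17.6 CPM (17.0 to 18.3) and 97.4 CPM (95.9 to 98.9) (log2 ratio 2.43), with 22 of 24 FGOs above all GROs.

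**Figure D2:**
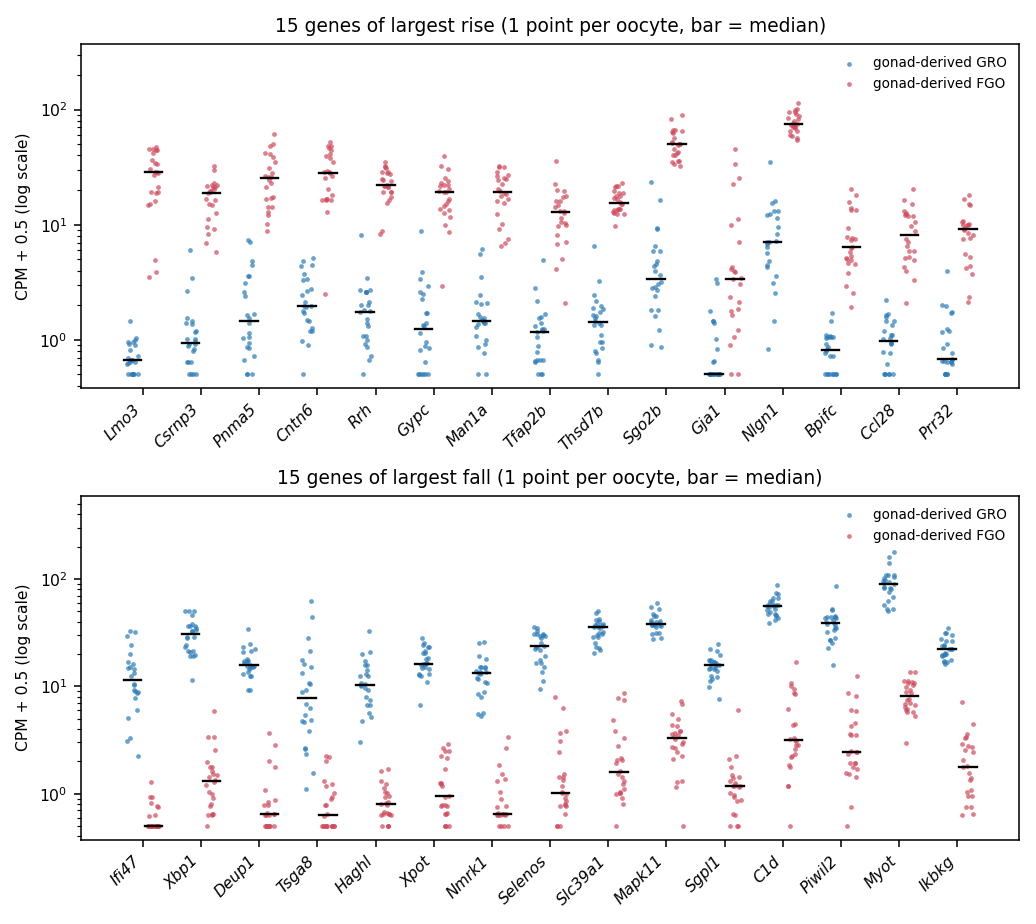
Level of the 15 genes with the largest increase and the 15 with the largest decrease by the naming rule, each oocyte a point (CPM + 0.5 on a log scale, vertical axis), with the 24 gonad-derived GROs and the 24 gonad-derived FGOs side by side and a bar at the median. All 24 FGOs lie above every GRO for Lmo3, and all lie below for Ifi47 and Xbp1, whereas Gja1 spreads from 0 to 44.9 CPM among FGOs.

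Among genes lower in FGOs, the largest difference was in Ifi47 (15953, chr11:49076587-49096987), an interferon-inducible GTPase. It stood at 13.0 CPM (12.48 to 13.6) in GROs, from 1.75 to 32.0 CPM (median 11.0), and at 0.123 CPM (0.0752 to 0.190) in FGOs, where the median oocyte had no read. The log2 ratio was −4.44, or 21.7-fold with the added 0.5 CPM. Xbp1 (22433, chr11:5520641-5525993), the transcription factor of the unfolded protein response whose mRNA is spliced by IRE1, was at 30.4 CPM (29.5 to 31.3) in GROs and 1.13 CPM (0.975 to 1.31) in FGOs. Every FGO, from 0 to 5.40 CPM (median 0.809), was below every GRO, from 10.9 to 50.1 CPM (median 30.1), and the log2 ratio was −4.24. Deup1 (234964, chr9:15559864-15628351), which builds deuterosomes for centriole amplification in multiciliated cells, was at 16.3 CPM (15.7 to 17.0) and 0.487 CPM (0.385 to 0.606) (log2 ratio −4.09). For Deup1 the lowest GRO had 8.65 CPM and the highest FGO 3.14 CPM.

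The promoters of these 3 genes are printed in the same way, to set beside those of the genes that were higher. The Ifi47 promoter (chr11:49076337-49076636, plus strand) held 2 CpGs and the only TATAAA among the 6 promoters printed, Xbp1 (chr11:5520391-5520690, plus strand) held 10 and Deup1 (chr9:15627797-15628096, minus strand) held 24.
Ifi47: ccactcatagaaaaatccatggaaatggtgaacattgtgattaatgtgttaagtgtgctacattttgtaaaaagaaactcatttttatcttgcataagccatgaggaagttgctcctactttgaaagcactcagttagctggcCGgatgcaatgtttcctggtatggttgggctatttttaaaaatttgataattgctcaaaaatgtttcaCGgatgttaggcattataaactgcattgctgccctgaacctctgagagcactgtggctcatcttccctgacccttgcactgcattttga
Xbp1: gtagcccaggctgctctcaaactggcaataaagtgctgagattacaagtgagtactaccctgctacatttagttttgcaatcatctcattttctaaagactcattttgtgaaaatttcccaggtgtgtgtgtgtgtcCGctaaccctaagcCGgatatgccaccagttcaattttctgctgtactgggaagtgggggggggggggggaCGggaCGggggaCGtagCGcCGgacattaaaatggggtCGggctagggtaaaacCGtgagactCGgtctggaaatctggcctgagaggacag
Deup1: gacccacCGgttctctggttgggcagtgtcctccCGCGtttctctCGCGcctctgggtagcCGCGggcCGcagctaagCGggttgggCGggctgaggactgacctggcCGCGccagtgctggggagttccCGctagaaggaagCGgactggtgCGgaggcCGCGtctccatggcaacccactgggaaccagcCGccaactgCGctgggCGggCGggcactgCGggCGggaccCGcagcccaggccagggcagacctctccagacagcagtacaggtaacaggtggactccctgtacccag

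The other genes of the 15 named for the largest decrease follow. Piwil2, which encodes the PIWI protein MILI of the piRNA pathway, was at 39.0 CPM (38.0 to 39.9) in GROs and 3.07 CPM (2.80 to 3.35) in FGOs (log2 ratio −3.47). Selenos, a selenoprotein of the endoplasmic reticulum that helps to extract misfolded proteins, was at 23.3 CPM (22.6 to 24.1) and 1.40 CPM (1.22 to 1.59) (log2 ratio −3.65). Slc39a1, a zinc importer, was at 33.0 CPM (32.2 to 34.0) and 2.18 CPM (1.96 to 2.42) (log2 ratio −3.65). None of these 3 genes overlapped between the groups. Xpot, which exports tRNA from the nucleus, was at 17.1 CPM (16.4 to 17.7) and 0.801 CPM (0.669 to 0.951) (log2 ratio −3.76). Nmrk1, a kinase that makes nicotinamide mononucleotide for NAD, was at 12.9 CPM (12.4 to 13.5) and 0.542 CPM (0.435 to 0.668) (log2 ratio −3.69). Sgpl1, the lyase that degrades sphingosine-1-phosphate, was at 15.2 CPM (14.6 to 15.8) and 0.862 CPM (0.725 to 1.02) (log2 ratio −3.53). Single FGOs of these genes still reached 2.37, 2.89 and 5.54 CPM, below the lowest GRO in each case.

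Signaling genes were among them. Mapk11, which encodes the kinase p38 beta, was at 39.0 CPM (38.0 to 40.0) in GROs and 2.89 CPM (2.64 to 3.17) in FGOs (log2 ratio −3.54). Ikbkg, the NEMO subunit of the kinase that activates NF-kappaB, was at 22.5 CPM (21.8 to 23.3) and 1.71 CPM (1.52 to 1.93) (log2 ratio −3.38). C1d, a cofactor of the nuclear exosome, was at 55.4 CPM (54.2 to 56.6) and 4.45 CPM (4.13 to 4.78) (log2 ratio −3.50), with a gap between the lowest GRO at 38.1 and the highest FGO at 16.2 CPM. Myot, known as a Z-disc protein of muscle, was at 92.0 CPM (90.5 to 93.5) and 8.14 CPM (7.71 to 8.59) (log2 ratio −3.42). Haghl, related to the glyoxalase HAGH, was at 11.4 CPM (10.9 to 11.9) and 0.376 CPM (0.287 to 0.483) (log2 ratio −3.76). Tsga8, an X-linked gene known from the testis, was the exception in its overlap: GROs ran from 0.600 to 61.8 CPM (median 7.31), and only 18 of 24 FGOs were below all of them (log2 ratio −3.79).

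The 5 most abundant of the genes at least 4-fold lower were Dppa5a, Ddx4, Ldhc, Snai1 and Zfp707. Dppa5a, an RNA-binding protein of pluripotent and germ cells, was at 977 CPM (972 to 981) in GROs and 232 CPM (230.0 to 235) in FGOs (log2 ratio −2.07). Ddx4, the germ cell RNA helicase also called VASA, was at 442 CPM (439 to 445) and 84.3 CPM (82.9 to 85.7) (log2 ratio −2.38). The FGOs of Ddx4 ran from 25.03 to 223 CPM (median 65.9), and the highest of them was still below the lowest GRO, at 276 CPM. Ldhc, the lactate dehydrogenase of germ cells, was at 232 CPM (229.6 to 234) and 24.5 CPM (23.8 to 25.3) (log2 ratio −3.22). Snai1, a zinc-finger repressor known from epithelial-mesenchymal transition, was at 195 CPM (192 to 197) and 43.2 CPM (42.2 to 44.2) (log2 ratio −2.16), and Zfp707, another zinc-finger protein, was at 193 CPM (190.4 to 195) and 23.5 CPM (22.8 to 24.3) (log2 ratio −3.01). In all 5 genes every FGO was below every GRO.

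Gene lists were compared with the counts over all tested genes, of which 5.82% were at least 2-fold higher, 9.98% at least 2-fold lower and 84.2% within 2-fold. Lower genes were frequent among the markers of oocyte identity. Of 14 oocyte markers, 7 were at least 2-fold lower, none was 2-fold higher, and the median log2 ratio was −0.88 against −0.05 over all tested genes. These 7 were the zona pellucida genes Zp1, Zp2 and Zp3 with Nlrp5, Padi6, Figla and Ddx4. Each is counted again in a list below, so the counts of those lists are not separate results. Zp1 was at 3986 CPM (3976 to 3996) in GROs and 1781 CPM (1775 to 1788) in FGOs (−1.16), Zp2 at 7779 CPM (7765 to 7793) and 2770.4 CPM (2762 to 2779) (−1.49) and Zp3 at 9476 CPM (9460.3 to 9491) and 3967 CPM (3957 to 3977) (−1.26). Every FGO was below every GRO for all 3, and FGO 19, at 956, 399 and 270.2 CPM, was the lowest. Beside the zona genes, Cd9, the tetraspanin needed for fusion with sperm, stood at 558 CPM (554 to 562) and 153 CPM (151 to 155) (−1.86). Astl, which encodes the cortical granule protease ovastacin, stood at 2955 CPM (2946 to 2963) and 1089 CPM (1083 to 1094) (−1.44). The sperm receptor gene Izumo1r (0.08) and the oocyte-secreted protein genes Oosp1 (0.21), Oosp2 (0.17) and Oosp3 (0.40) were within 2-fold, so 5 of 9 genes of this list were at least 2-fold lower.

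The growth factors that oocytes secrete differed by less than 2-fold. All 7 tested genes of that list, Kit included, were within that limit, as were 84.2% of all tested genes, and the median of the list was 0.26. Bmp15 was at 3423 CPM (3414 to 3432) in GROs and 4129.6 CPM (4119.8 to 4139.5) in FGOs (0.27), while Gdf9 had a log2 ratio of −0.54 with 21 of 24 FGOs below all GROs. Kit, the receptor through which granulosa cells sustain oocyte growth, was at 273 CPM (270.4 to 276) and 277 CPM (274 to 279) (0.02). The PI3K and mTOR pathway downstream of Kit also had all 16 tested genes within 2-fold, where 84.2% of all tested genes were. Its extremes were Pik3r1 (0.97), a regulatory subunit of PI3K, and Rptor (−0.64), a subunit of mTORC1. Foxo3, the transcription factor that restrains the activation of primordial follicles, had a log2 ratio of 0.82.

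The subcortical maternal complex lies under the oocyte membrane and is needed by the cleaving embryo. Of 17 genes of the complex and of the Nlrp family, 6 were at least 2-fold lower and none higher, with a median of −0.60. Nlrp5, also called MATER, was at 3812 CPM (3803 to 3822) in GROs and 1043 CPM (1038 to 1048) in FGOs (−1.87). Padi6, a component of the cytoplasmic lattices, was at 14564 CPM (14545 to 14582) and 4714 CPM (4703 to 4724) (−1.63). Tle6 (−1.18) and Khdc3 (−1.16), structural members of the complex, were lower by a little over 2-fold, as were Nlrp14 (−1.36) and Nlrp4c (−1.27). Every FGO was below every GRO for 6 of the 17 genes of the list, where this held for 2.62% of all tested genes. Among the 6 genes at least 2-fold lower it held for 5, and 17 of 24 FGOs lay below all GROs for Nlrp4c. Ooep, another core member, was at 4396 CPM (4385 to 4406) and 2897 CPM (2889 to 2905) (−0.60). Nlrp genes are close copies of one another, and values of single members are uncertain to the extent that unique mapping fails.

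Transcription factors of the oocyte were divided. Of 13 tested genes of the list, which also holds the dynein light chain gene Dynll1, 5 were at least 2-fold lower and none higher, with a median of −0.39. Sohlh1, a helix-loop-helix factor of early oocytes, was the only one at least 4-fold lower, at 6.59 CPM (6.19 to 7.00) in GROs and 0.443 CPM (0.347 to 0.558) in FGOs (−2.91). Its GROs ran from 0.139 to 41.5 CPM (median 2.40), so that 13 of 24 FGOs lay within their range. Figla, which drives the zona genes, was at 139.5 CPM (138 to 141) and 46.5 CPM (45.5 to 47.6) (−1.57). Tbpl2, the TATA-binding protein variant of growing oocytes, was at 66.9 CPM (65.6 to 68.2) and 18.0 CPM (17.4 to 18.7) (−1.86). Both were separated in all oocytes. Yy1 (−1.67) and Dynll1 (−1.24) were also lower, whereas Nobox (−0.39), Sohlh2 (−0.02) and the homeobox genes Obox1 (0.77), Obox2 (0.82) and Obox5 (0.74) stayed within 2-fold.

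In the list of germ cell and pluripotency genes, which did not hold Dppa5a (−2.07), 11 of 14 were within 2-fold. Prdm1, the repressor that specifies primordial germ cells, was at 13.3 CPM (12.7 to 13.9) in GROs and 56.9 CPM (55.8 to 58.1) in FGOs (2.06), and the lowest FGO, at 39.1 CPM, was above the highest GRO, at 36.9 CPM. Ddx4 was at the other end. Pou5f1, which encodes OCT4, stood at 126 CPM (124 to 128) and 147 CPM (145 to 149) (0.22), with overlapping oocytes. The piRNA pathway, which silences transposons and in which Ddx4 and Piwil2 act, had 5 of 16 tested genes at least 2-fold lower. Its median was −0.45, and the list was drawn up after Ddx4 and Piwil2 had been seen. Tdrd9 (−1.16), Pld6 (−1.06) and Mov10l1 (−1.05) were the others, whereas Piwil1, which encodes MIWI, was higher, at 12.4 CPM (11.8 to 12.9) and 39.5 CPM (38.6 to 40.5) (1.64), in 22 of 24 FGOs beyond all GROs.

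Genes for the end of meiosis mostly stayed within 2-fold, at counts near those over all tested genes. Every FGO lay above every GRO for 4 of 20 genes of meiotic arrest and resumption and 2 of 20 spindle and checkpoint genes. This held for 1.36% of all tested genes. Among 20 genes of meiotic arrest and resumption, 2 were at least 2-fold higher and none lower, and the median was 0.36. Ccnb3, a cyclin of the first meiotic division, was at 42.1 CPM (41.1 to 43.2) in GROs and 101 CPM (99.3 to 102) in FGOs (1.25), with 23 of 24 FGOs above all GROs. Gpr12, one of the receptors that keep cyclic AMP high, was at 0.478 CPM (0.376 to 0.599) and 1.69 CPM (1.499 to 1.91) (1.17), and most of its oocytes overlapped. Mos (−0.06), Ccnb1 (0.17), Gpr3 (0.19) and Cdk1 (−0.25) were within 2-fold. In the spindle and checkpoint list, 19 of 20 were within 2-fold, and Bub1b, the checkpoint kinase BubR1, was the exception at 729.9 CPM (726 to 734) and 1684 CPM (1678 to 1690.1) (1.21), without overlap. Genes of meiotic prophase, a stage these oocytes have completed up to arrest, had 4 of 24 at least 2-fold lower. These were Syce1 (−1.68), Rad21l (−1.57), Sycp3 (−1.14) and Sycp1 (−1.12), which build the synaptonemal complex and its cohesin axis, while Mei4 (1.85), a factor of DNA break formation, was higher.

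Stored mRNA is handled by a set of RNA-binding proteins, of which 15 of 19 stayed within 2-fold. Cnot7, a deadenylase of the CCR4-NOT complex, was at 417 CPM (414 to 420.3) in GROs and 1050.2 CPM (1045 to 1055) in FGOs (1.33), without overlap. Cpeb4, a cytoplasmic polyadenylation factor, was at 19.5 CPM (18.9 to 20.2) and 49.8 CPM (48.7 to 50.9) (1.33). In the other direction were Ddx6 (−1.64), a helicase of P-bodies, and Ythdf2, the reader of methylated adenosine, at 403 CPM (399.9 to 406) and 148 CPM (147 to 150.3) (−1.44). Ybx2, also called MSY2, had a ratio of −0.996, at the edge of the 2-fold limit. Zar1 (−0.33), Btg4 (0.55) and Cpeb1 (−0.13) were within it.

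DNA methylation is laid down during oocyte growth. The enzymes themselves were within 2-fold, with Dnmt3a at 281 CPM (278 to 283) in GROs and 228 CPM (225 to 230.1) in FGOs (−0.30) and its cofactor Dnmt3l at 78.8 CPM (77.4 to 80.2) and 119.9 CPM (118 to 122) (0.60). Past 2-fold were Kdm1b (−1.44), the H3K4 demethylase that imprints need, and Nsd1 (1.01), an H3K36 methyltransferase, at 99.4 and 201 CPM and without overlap. The Polycomb group, which places repressive marks on histones, had 25 of 30 tested genes within 2-fold. Suz12, a core subunit of PRC2, was at 56.0 CPM (54.8 to 57.2) and 114 CPM (112 to 115) (1.02). The PRC1 genes Cbx8 (−1.84), Ring1 (−1.81) and Pcgf5 (−1.41) were lower, and Ring1 was scarce in both groups, at 1.78 and 0.148 CPM.

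Most genes of energy supply and translation had a ratio a little below 0, as did 53.3% of all tested genes. Among 64 nuclear-encoded subunits of oxidative phosphorylation, 58 had a log2 ratio below 0, the median was −0.43 and 58 were within 2-fold. Uqcrc1, a core subunit of complex III, went further, at 166 CPM (164 to 168) in GROs and 33.9 CPM (33.1 to 34.9) in FGOs (−2.27), with no overlap. Among 65 cytosolic ribosomal protein genes, 60 were below 0 with a median of −0.34. Only Rpl10l, a germ cell copy of Rpl10, was at least 4-fold lower, at 13.0 CPM (12.46 to 13.6) and 2.36 CPM (2.13 to 2.61) (−2.24). Mitochondrial ribosomal proteins had 53 of 62 below 0 and a median of −0.30, while the proteasome subunits were balanced, with 19 of 34 below 0 and a median of −0.04. FGO 19 was far below the other FGOs in the first 3 of these lists, by medians of −2.43, −2.02 and −2.24, and lower by −1.43 in the proteasome.

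Genes of protein folding were put into lists after the values of single members had been seen, so the counts are no independent evidence of a direction. In the list of the unfolded protein response, which Xbp1 and Selenos had prompted, 3 of 29 tested genes were at least 4-fold lower, where 1.87% of all tested genes were, and 2 of the 3 were those that prompted it. There 23 were within 2-fold and the median was −0.17. The third was Herpud1, which retains misfolded proteins for degradation, at 15.8 CPM (15.2 to 16.5) in GROs and 1.15 CPM (0.987 to 1.32) in FGOs (−3.31). Without FGO 18 the ratio was −3.72. Ern1, which encodes the sensor IRE1 that splices Xbp1 mRNA, was higher, at 63.4 CPM (62.2 to 64.7) and 152 CPM (151 to 154) (1.26), without overlap. Eif2ak3 (−1.42), which encodes the sensor PERK, was lower and Atf6 (0.54) within 2-fold, as was Hspa5 (−0.78), the chaperone BiP. In the list of cytosolic chaperones 2 of 16 genes were at least 4-fold lower and the median was −0.39. Cct6a, a subunit of the CCT chaperonin that folds actin and tubulin, was at 102 CPM (100.3 to 103) and 9.91 CPM (9.43 to 10.4) (−3.30). Cct4, another subunit, was at 118 CPM (116 to 119) and 27.9 CPM (27.1 to 28.7) (−2.05), yet the other subunits Cct2 (−0.71), Cct3 (−0.10), Cct7 (−0.66) and Cct8 (−0.26) stayed within 2-fold. The heat shock genes Hsph1 (−1.90) and Hsp90ab1 (−1.18) were lower by more than 2-fold.

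Of 17 tested genes of glycolysis and lactate, 14 had a ratio below 0, where 53.3% of all tested genes did, and the median was −0.56. Only Gapdh (−1.65) and Pfkl (−1.11), 2 of the 17, were at least 2-fold lower, a share near the 9.98% of all tested genes. Ldhc, with a log2 ratio of −3.22, was not in this list. Slc16a1, which imports lactate and pyruvate, was at 45.3 CPM (44.2 to 46.3) in GROs and 95.3 CPM (93.8 to 96.8) in FGOs (1.07). In cholesterol synthesis, Hmgcs1 (1.02) and Msmo1 (1.23) were higher and Pmvk (−1.95), Mvk (−1.43) and Tm7sf2 (−1.01) lower among 21 genes, with a median of −0.14. Antioxidant genes had 3 of 22 at least 2-fold lower, namely glutathione reductase Gsr (−1.62), glutathione peroxidase Gpx1 (−1.57) and Nfe2l2 (−1.09), which encodes NRF2. All 13 genes of calcium signaling were within 2-fold. Of 14 retinoid genes, 13 were within 2-fold, and Crabp1, a retinoic acid binding protein, was lower (−1.55), with most oocytes overlapping.

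**Figure D3:**
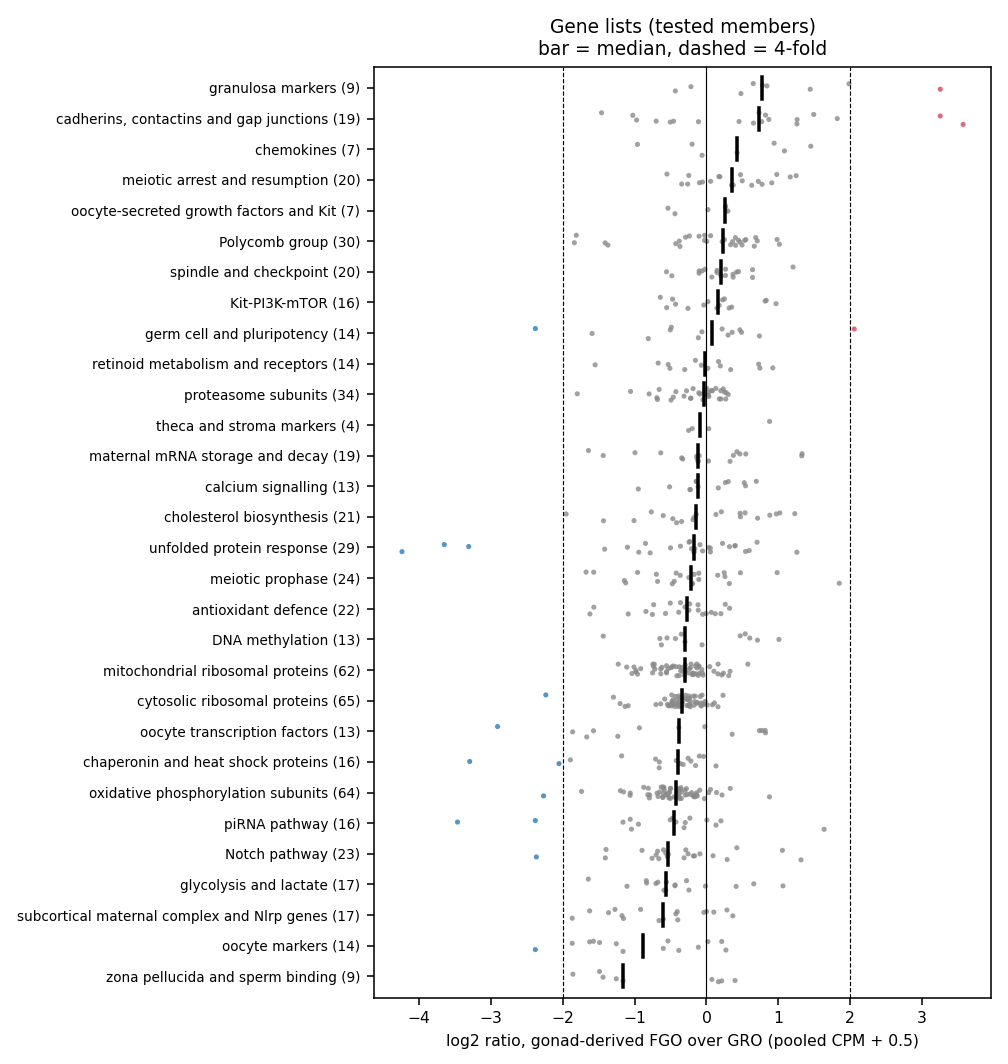
Log2 ratio of FGO over GRO (horizontal axis, pooled CPM + 0.5) of every tested member of the gene lists in gonad-derived oocytes, 1 list a line, with a bar at the median of each list and dashed lines at 4-fold. Ribosomal and respiratory genes gather just below 0, while single genes such as Xbp1, Piwil2, Sohlh1 and Cntn6 lie far from the rest of their list.

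Contact with the follicle involves cadherins, contactins and connexins. Of 19 tested genes of this list, 6 were at least 2-fold higher and 2 lower, and the median was 0.73. Besides Cntn6 and Gja1, the higher genes were N-cadherin Cdh2, at 5.55 CPM (5.19 to 5.93) in GROs and 20.9 CPM (20.2 to 21.6) in FGOs (1.82), the desmosomal cadherin Dsc2 (1.49) and the contactins Cntn1 (1.26) and Cntn3 (1.26). The lower ones were the connexin genes Gjc1 (−1.46) and Gjb2 (−1.03). Gja4, which encodes connexin 37, the channel between oocyte and granulosa cell, was at 1481 CPM (1475 to 1487) and 1371 CPM (1365 to 1376) (−0.11). In the Notch pathway, by which oocyte and granulosa cell exchange signals, 18 of 23 tested genes were within 2-fold and the median was −0.53 (−0.29 with 2 CPM added and −0.30 without the filter). Hes5, a target of Notch, was at 9.56 CPM (9.09 to 10.1) and 1.45 CPM (1.27 to 1.64) (−2.37), although 18 of 24 FGOs lay within the range of the GROs. The ratio of Heyl, 1.32, rested on FGO 18, whose 48.8 CPM compares with 13.1 CPM in the next oocyte, and it was 0.62 without that oocyte. The chemokine list did not hold Ccl28 (3.15). Among its 7 tested genes, Ccl4 (1.45) and Ccl2 (1.09) were at least 2-fold higher, both under 5 CPM in either group. Ccl2 had a ratio of 0.73 without FGO 4.

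The summed level of granulosa cell markers was higher in FGOs. Of 14 listed markers, 12 were found among the deposited genes, and Foxl2 and Inha were not. The sum over the 12 genes was 28.8 to 105 CPM in GROs (median 54.4) and 87.8 to 161 CPM in FGOs (median 117), and none of the 12 was without reads in either group. Cyp19a1, the aromatase gene, made up much of it, at 19.1 CPM (18.5 to 19.8) in GROs and 77.2 CPM (75.9 to 78.6) in FGOs, and it was higher in every FGO than in any GRO. Nr5a2, a nuclear receptor and the most abundant marker in GROs, was lower in FGOs, at 25.7 CPM (24.9 to 26.5) and 18.9 CPM (18.3 to 19.6) (−0.43). Without Cyp19a1 and Nr5a2 the sum of the remaining 10 genes was 3.45 to 23.3 CPM (median 8.97) in GROs and 4.32 to 74.7 CPM (median 17.0) in FGOs. Among these 10 genes, 6 were at a higher pooled level in FGOs. Gja1 was at 0.420 and 8.29 CPM, Hsd17b1, which encodes an enzyme of estradiol synthesis, at 0.166 and 1.31 CPM, Inhba, an inhibin and activin subunit, at 0.229 and 0.751 CPM, Fst, which encodes follistatin, at 0.0382 and 0.345 CPM, Nr5a1, a steroidogenic transcription factor, at 0.535 and 1.35 CPM, and Kitl, the ligand of Kit, at 5.97 and 8.52 CPM. The other 4 were lower in FGOs or nearly equal, with Amh and Amhr2 under 0.1 CPM in both groups, Wnt4 at 0.172 and 0.0308 CPM, and Fshr, the FSH receptor, at 2.58 and 2.15 CPM. Of the 9 members that passed the filter, 7 had a ratio above 0, and the median was 0.78 (1.37 with 0.1 CPM added, 0.40 with 2 CPM and 1.59 by the edgeR coefficient). The part of granulosa RNA in the differences of single genes was not tested. Without the 3 FGOs highest in these markers, 107 genes were at least 4-fold higher and 254 lower. Cumulus markers summed to at most 3.66 CPM in any oocyte and Ptx3 had no read. Theca and stroma markers ran from 2.18 to 9.36 CPM in GROs (median 5.73) and from 1.77 to 70.3 CPM in FGOs (median 5.13), with the maximum in FGO 18 and Col1a2 without reads. Blood and vessel markers came almost entirely from Pecam1, at 101 CPM in GROs and 149 CPM in FGOs. Pecam1 encodes CD31, an antigen by which the study removed primordial germ cells from gonads, so its level was not taken as a measure of vessel cells. Of the others, Cd68 was at 4.11 and 3.65 CPM and Lyz2 at 0.0191 and 0.0739 CPM. Cdh5 had 0 and 4 reads, Ptprc 2 and 1, and Hbb-bs none.

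Oocytes of 1 group were not identical, and FGO 19 decided which group looked more spread. Over 6841 genes at 10 CPM or more in both groups, the median SD of log2(CPM + 1) was 0.262 among GROs and 0.348 among FGOs, and the SD was higher among FGOs for 4887 genes, or 71.4%. Without FGO 19, a choice made after seeing the data, the median SD of the FGOs was 0.260, and it was higher among FGOs for 3162 genes, or 46.2%. The first principal component, with 38.9% of the variance, separated the groups, with GROs between −63.3 and −14.6 and FGOs between 18.7 and 60.2. GRO 23 lay nearest to FGOs in its leading genes. It held the highest GRO level of 8 of the 15 genes named as higher and the lowest GRO level of 8 of the 15 named as lower. Its summed granulosa markers were also the highest among GROs, at 105 CPM against a median of 54.4 CPM.

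For each oocyte the mean log2 level was taken over the genes that were at least 4-fold higher, or lower, during growth in vivo. These genes were chosen on the in vivo libraries, in which their difference is therefore given. Over the higher genes, gonad-derived GROs had means of 1.41 to 2.99 (median 2.33) and gonad-derived FGOs 3.13 to 3.93 (median 3.58). In vivo, GROs had 0.709 to 2.24 (median 1.56) and FGOs 2.50 to 4.37 (median 4.07). The median gonad-derived GRO stood above the highest in vivo GRO, and the highest gonad-derived FGO below the median in vivo FGO, in directions that the choice of genes on the in vivo libraries favors. Over the lower genes, gonad-derived GROs had 2.50 to 3.64 (median 3.08) and FGOs 1.25 to 2.01 (median 1.44), against 3.36 to 4.23 (median 3.68) and 0.942 to 3.03 (median 1.32) in vivo. Across the 24 gonad-derived GROs, the 2 means moved against each other, with Pearson's r −0.85 and Spearman's rho −0.87, whereas across the 24 gonad-derived FGOs r was −0.01 and rho 0.11. These are descriptions over oocytes of 1 group, whose 2 means share a library.

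**Figure D4:**
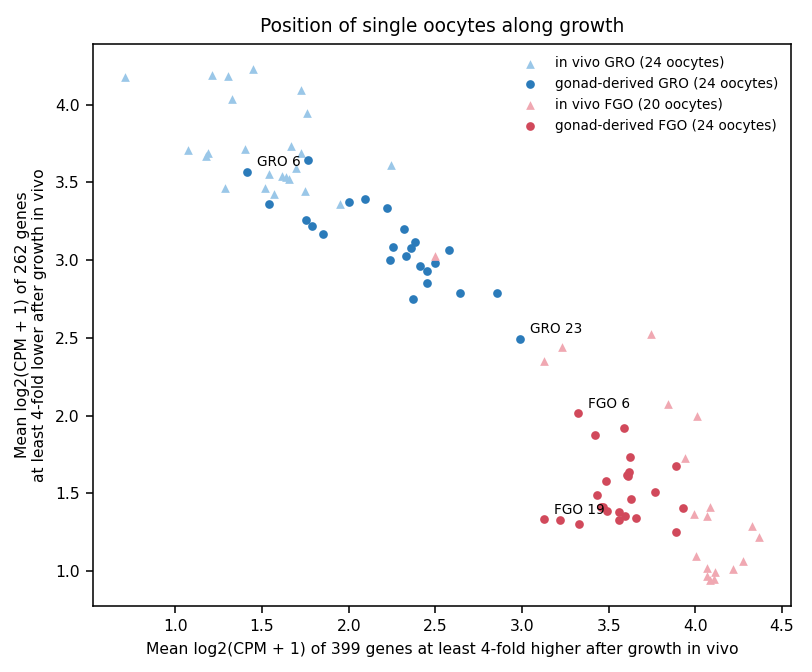
Each point is an oocyte, placed by its mean log2(CPM + 1) over genes at least 4-fold higher (horizontal axis) and at least 4-fold lower (vertical axis) during growth in vivo, for gonad-derived and in vivo GROs and FGOs. Gonad-derived GROs form a diagonal band that starts among the in vivo GROs and runs toward the FGOs, and gonad-derived FGOs form a compact group. In vivo FGO 7 lies among the gonad-derived GROs.

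Many of the genes past 4-fold in culture were also apart in the mouse. The gonad-derived and the in vivo comparison use no library in common. Across the 13068 tested genes, which are not independent replicates, their log2 ratios had a Pearson's r of 0.739 and a Spearman's rho of 0.691. Of the 115 genes at least 4-fold higher in culture, 87 (75.7%) were at least 4-fold and 109 (94.8%) at least 2-fold higher in vivo, where 3.05% and 10.2% of the tested genes were. Of the 244 lower genes, 109 (44.7%) were at least 4-fold and 217 (88.9%) at least 2-fold lower in vivo, where 2.00% and 13.2% were. The median ratio of the higher genes was 2.36 in culture and 2.60 in vivo, and that of the lower genes −2.39 in culture and −1.93 in vivo. Lmo3 had nearly the same ratio in both settings, 5.22 and 5.11. Cntn6 had 3.57 in culture and 5.38 in vivo, Dab2 2.11 and 3.73, and Slc6a15 2.59 and 5.16. Deup1 had −4.09 in culture but −0.96 in vivo, Mapk11 −3.54 and −1.31, and Xbp1 −4.24 and −2.60. These in vivo ratios pool FGOs that were unlike one another. Over the genes lower in vivo, in vivo FGOs had means of 0.942 to 3.03 and gonad-derived FGOs 1.25 to 2.01. With medians over oocytes in both settings, 318 genes were at least 4-fold lower in culture and 197 of them also in vivo. The part of this spread in the ratios of single genes was not tested.

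**Figure D5:**
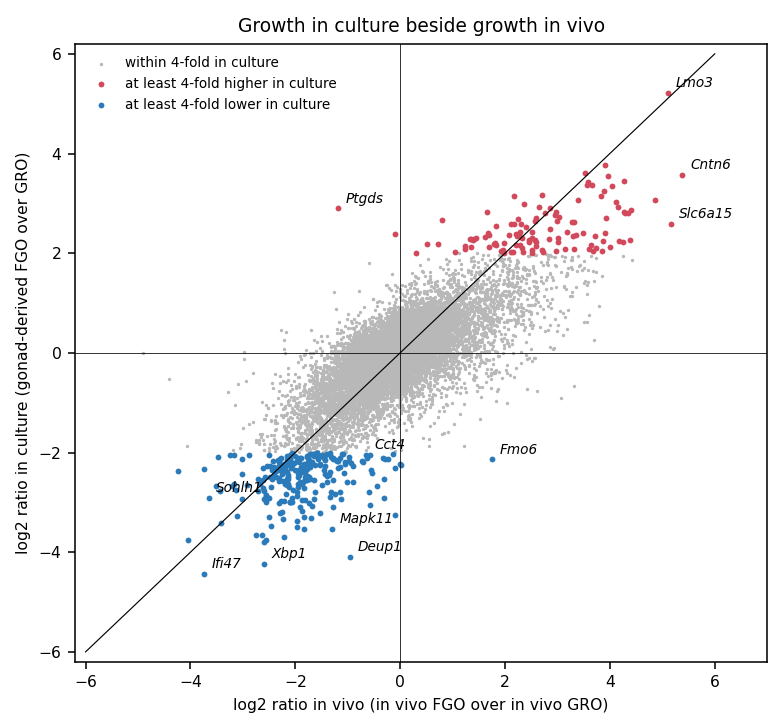
Log2 ratio of FGO over GRO of each tested gene in gonad-derived oocytes (vertical axis) and in oocytes grown in vivo (horizontal axis), with genes at least 4-fold apart in culture colored. Most colored genes lie on the same side of 0 in both settings, with Ptgds and Fmo6 as exceptions, and many higher genes have a larger ratio in vivo.

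The same libraries were also read from the in vivo side. In vivo 399 genes were at least 4-fold higher and 262 lower. Of the 399, 87 (21.8%) were at least 4-fold and 276 (69.2%) at least 2-fold higher in culture, with a median ratio of 2.50 in vivo and 1.42 in culture. Genes chosen for a large ratio in 1 comparison tend to have a smaller ratio in another. Genes chosen as higher also tend to lie higher in other GROs and lower in other FGOs, so for the 399 genes the choice favors the signs of these differences. Oocyte size was not used here. The study reports that its gonad-derived GROs were larger than its GROs grown in vivo, and the part of size in these differences was not tested. At the median of these 399 genes, gonad-derived GROs lay 0.81 log2 units above GROs grown in vivo, with 162 genes at least 2-fold above, whereas gonad-derived FGOs were −0.28 log2 units from in vivo FGOs, with 58 at least 2-fold below. Of the 262 lower genes, 109 (41.6%) were at least 4-fold and 220 (84.0%) at least 2-fold lower in culture. Their medians were −2.28 in vivo and −1.83 in culture, with gonad-derived GROs −0.78 from in vivo GROs and gonad-derived FGOs −0.25 from in vivo FGOs. The choice of genes favors the sign of −0.78 but not that of −0.25, and the latter depends on the summary. In means per oocyte over these genes, the median gonad-derived FGO stood at 1.44, above the median in vivo FGO at 1.32, while single in vivo FGOs reached 3.03. Over all tested genes the 2 medians between settings were −0.02 for GROs and −0.00423 for FGOs. In vivo FGO 7 bears on these counts: without it 411 genes were higher and 338 lower in vivo, and 90 and 134 were shared with culture.

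A pair of genes at least 4-fold apart between gonad-derived GROs and FGOs went the opposite way in vivo by 2-fold or more. Ptgds, a prostaglandin D synthase and lipocalin, was at 3.93 CPM (3.62 to 4.25) in gonad-derived GROs and 32.5 CPM (31.6 to 33.4) in gonad-derived FGOs (2.90), and at 7.47 and 3.01 CPM in vivo (−1.18). Its gonad-derived FGOs ran from 2.88 to 93.4 CPM (median 19.0), and 16 of 24 lay above all GROs. Fmo6, of the flavin monooxygenase family, was at 59.1 CPM (57.9 to 60.3) and 13.0 CPM (12.47 to 13.6) in culture (−2.14) and at 0.531 and 2.98 CPM in vivo (1.75). With the mean of CPM over oocytes its ratio in culture was −1.92, inside 4-fold, and with the edgeR coefficient −1.93. In iPSC-derived oocytes Fmo6 was at 0.766 CPM in GROs and 4.10 CPM in FGOs (1.86), the direction seen in vivo, and Ptgds was at 29.4 and 50.2 CPM (0.76). Neither gene separated all oocytes of the 2 gonad-derived groups.

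Oocytes derived from iPSCs had passed through similar IVD and IVG steps. Across genes their ratios and those of gonad-derived oocytes had r 0.862 and rho 0.831, again with no shared library. In iPSC-derived growth 145 genes (1.11%) were at least 4-fold higher and 470 (3.60%) lower. Of the gonad-derived genes, 63 of 115 higher ones (54.8%) and 214 of 244 lower ones (87.7%) passed the 4-fold rule there too, with the same sign. The median ratio of the 115 genes was 2.11 there and that of the 244 genes −2.75. Deup1 had a ratio of −5.04 in iPSC-derived growth, Xbp1 −5.21, and Cct6a −4.58. Gja1, by contrast, had 1.02 there against 3.26 in gonad-derived oocytes, and Bpifc had 1.64 against 3.15.

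Promoter sequence took no part in the choice of genes and is compared here without a test. A RefSeq promoter window was found for 10325 of 12727 tested genes (81.1%), 94 of 113 higher genes (83.2%) and 197 of 240 lower genes (82.1%) off chromosome 18. The median CpG count per 300 bases was 19 over tested genes (quartiles 9 and 28), 8 in genes at least 4-fold higher (3.25 and 14) and 20 in genes at least 4-fold lower (14 and 29). Median GC content was 60.0%, 50.8% and 61.0%. The 3 promoters of higher genes printed above, with 7, 5 and 1 CpGs, were at or below the median of their set, while among lower genes Deup1 (24) was above and Ifi47 (2) and Xbp1 (10) below theirs. Among genes under 5 CPM in GROs, the median was 8 in genes at least 4-fold higher and 12 over tested genes, and an E-box, the string CANNTG, was in 79.2% and 70.4% of windows. Under that level 77.5% of the tested genes and 84.7% of the higher genes had a window, so the comparison leaves out the rest and its values are a description. The tested median was 12 at this level and 19 over all tested genes, so the gap to the higher genes was smaller among genes of low level in GROs.

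Short motifs were searched on both strands of the same windows, namely the E-box, the TATA box TATAAA and the homeobox core TAATTA. The E-box was in 79.8% of windows of higher genes, 62.9% of lower genes and 66.2% of tested genes, and in 72.1% of all 27025 promoters of the table. The TATA box was in 11.7%, 9.14%, 8.15% and 14.2% in the same order. The homeobox core was in 8.51%, 1.52%, 3.14% and 5.31%, which is 8 of 94 windows of higher genes and 3 of 197 of lower genes. The TATA box and the homeobox core can share bases where they lie side by side, and a match is a string and not a binding site. The median exonic length was 3789 bases in higher genes, 2922 in lower genes and 2778 in tested genes. The X chromosome held 10 of the 115 higher genes (8.70%), 13 of the 244 lower genes (5.33%) and 3.59% of the tested genes.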

How the data were processed

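RNA of single oocytes was sequenced with the Smart-seq2 protocol. The deposited values are raw read counts per gene: the authors aligned reads to GRCm38/mm10 with spike-in sequences using STAR and counted uniquely mapped reads with QuasR over the exons of 1 randomly chosen transcript per gene. No spike-in or mitochondrially encoded gene is used here, and the strand setting is not given in the sources used here, so that overlapping, antisense and near-identical genes are uncertain. Of 21950 genes, 21907 obtained a symbol by Entrez ID from the RefSeq table of GRCm38.p6, which also gave coordinates and promoters.

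Groups came from the labels. The oocytes were taken by their labels, but that choice and the gene lists (29 lists, and 3 added after values had been seen) were made with earlier results of these data known. Counts were summed over oocytes and divided by the summed library totals (CPM, scaled to 1000000 reads). Genes above 1 CPM in at least 3 of 48 oocytes were kept, 0.5 CPM was added to both levels, and a ratio of 4-fold served as the rule of size. As the labels name no animal or culture, no test was run. Named in each direction were the 15 genes with the largest ratio and at least 5 CPM in the higher group that stayed 4-fold apart in medians over oocytes and with any oocyte left out, the 5 genes of highest CPM, in each list every member at least 4-fold apart and up to 4 of the largest absolute ratio, genes whose ratio in vivo was at least 2-fold the other way, and the promoters of the first 3 genes per direction. Further list members were named after their values had been seen. Principal components and SDs used log2(CPM + 1). No pair of oocytes within a group agreed within sampling noise: the lowest chi-square per degree of freedom over 276 pairs was 8.52 in GROs and 6.35 in FGOs. Alternatives were other scalings (TMM of edgeR 4.0.16, median of ratios of DESeq2 1.42.0), an edgeR coefficient, pseudocounts of 0.1 and 2 CPM, other filters, means and medians over oocytes, and oocytes left out. Scripts were tested on simulated data and run in Python 3.11.15 (numpy 2.4.6, pandas 2.3.3, scipy 1.17.1) and R 4.3.3.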

Additional observations from a re-analysis of the deposited data

How the results depend on the processing

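The counts of 115 and 244 genes depended on the added CPM and on the estimator. With 0.1 CPM they were 245 and 420, 79.5% of genes were within 2-fold, and 188 and 211 were shared with growth in vivo. With 2 CPM they were 51 and 98, 90.2% were within 2-fold, and 41 and 35 were shared. The edgeR coefficient gave 331 and 471, a median of −0.00854, 78.4% and 235 and 239 shared. The share within 2-fold was 88.9% without a filter, 83.5% with a filter of 12 oocytes and 83.0% in medians over oocytes, which gave 147 and 318 genes and 197 lower genes shared, against 109. TMM gave 118 and 237 and median-of-ratios scaling 119 and 229. Leaving out 1 oocyte gave 109 to 128 and 236 to 259 genes, 178 to 228 and 342 to 388 without overlap, medians of −0.05 to −0.04, 83.8% to 84.6% within 2-fold, and 82 to 98 and 105 to 114 shared. Chosen after seeing the data, leaving out FGOs 5 and 22 gave 115 and 243, and FGOs 18 and 19, 117 and 264. Without FGO 15 the counts were 115 and 242. Bpifc was inside 4-fold with 2 CPM added (1.95). Of 546 values for named genes, 31 moved by at least 1 SD between oocytes of a group and none changed sign, and of 415 list medians 3 moved by as much. In other terms, the medians of 16 of 32 lists moved by over 1.5 times under some alternative, and those of calcium signaling, germ cell and pluripotency, theca and stroma, and retinoid genes, all within 0.12 of 0, changed sign. Without a filter the median was −0.20 in oocyte transcription factors, 0.14 in secreted growth factors and Kit, and 0.45 in cadherins, contactins and gap junctions, and the cholesterol median was −0.09 in medians over oocytes. No paired analysis was possible because the labels tie no oocyte to an animal or culture and the result comes from no test. Precision is limited by the unnamed cultures, since 24 oocytes may come from few of them, and genes near 1 CPM rest on few reads per oocyte.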

Other observations

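FGO 19 differed from the other 23 FGOs at many transcripts. In that oocyte 1478 genes were at least 4-fold below the median of the other FGOs and 76 at least 4-fold above. Among the lowest was Upp1, uridine phosphorylase, at 1.58 CPM against 157 to 536 CPM in the others. Cdk1, the kinase that drives entry into meiotic metaphase, was at 3.74 CPM against 190.4 to 279 CPM. Respiratory subunits were low together, with 46 of 64 at least 2-fold below the other FGOs, as were 55 of 65 cytosolic and 42 of 62 mitochondrial ribosomal protein genes. Over all tested genes 3885 were at least 2-fold lower and 1325 higher, with a median of −0.27. Zp3 was at 270.2 CPM against 3476 to 5413 CPM and Khdc3 at 77.4 CPM against 564 to 1468 CPM. Gdf9, at 8918 CPM, was within the range of the others, which was 5222 to 10783 CPM. A few genes were far higher: Pnpla3, a lipase of lipid droplets, was at 1005 CPM against a median of 4.45 CPM, although 1 other FGO reached 716 CPM, and Hmgn3, a nucleosome-binding protein, was at 132 CPM against at most 15.9 CPM. Genes of the Kit, PI3K and mTOR list had a median of 0.76 log2 units above the other FGOs.

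Fmo6 levels were high in some oocytes and low in others at both stages, with a gap between. Among gonad-derived GROs, 17 had 31.4 CPM or more and 7 had 6.02 CPM or less, with none between. Among gonad-derived FGOs, 4 had 53.4 CPM or more and 20 had 5.07 CPM or less. Only 1 of the 48 oocytes, an FGO, had no read. The bounds of the gap were read from these data. The log2 ratio of medians was −4.36 where that of the pooled levels was −2.14. Which embryo or rOvary each oocyte came from is not labelled, so whether oocytes of high level share an origin was not tested.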
